A study of Mus musculus with 24 samples.

Results

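The constitutive proteasome subunits are the 34 genes Psma1 to Psma7, Psmb1 to Psmb7, Psmc1 to Psmc6 and Psmd1 to Psmd14, chosen by the gene symbol that the platform annotation gives a probe set. They had 72 probe sets on the array. Of these, 58 passed the filter on low values, a value above log2 4 on at least 3 of the 24 arrays, and every one of the 34 genes kept at least 1 of them among the 9421 genes tested. Each gene is represented by the 1 of its probe sets whose mean over all arrays was highest, and 16 of the 34 genes had several probe sets that passed.

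The proteasome is the large protease that degrades ubiquitin-tagged proteins in the cytosol and nucleus of all mouse cells. Its core particle is a stack of rings, with outer rings of Psma (alpha) subunits that gate the entrance and inner rings of Psmb (beta) subunits. Among the beta subunits, Psmb6 (beta1), Psmb7 (beta2) and Psmb5 (beta5) hold the active sites. A regulatory cap of Psmc ATPases, which unfold the substrate, and Psmd subunits, which bind ubiquitin and remove it, feeds the core. Cells exposed to interferon, IFN-gamma above all, are known to make the inducible catalytic subunits Psmb9, Psmb10 and Psmb8, which take the places of Psmb6, Psmb7 and Psmb5 in newly assembled cores (the immunoproteasome) and change the peptides offered to T cells.

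Total RNA of NIH-3T3 cells, an established line of mouse embryo fibroblasts, was measured on one-colour arrays in 7 groups, all given fresh medium at the start. At 1 h there were 4 arrays each of mock-treated cells, cells given IFN-alpha at 100 U/ml and cells given IFN-gamma at 100 U/ml, all with the nucleoside 4-thiouridine (4sU), which cells build into new RNA, at 200 uM from 0 to 60 min. At 3 h there were 3 arrays of each of these treatments with 500 uM 4sU from 150 to 180 min, and the last 3 arrays were of unlabelled mock cells at 1 h. The labels do not say whether replicates were separate cultures, so the p-values rest on a spread between arrays that may be technical.

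The values are log2 GCRMA signals, and their precision is limited by how few arrays each group had. Array medians lay between 2.95 and 3.11. All 9 fibroblast markers were above log2 4 (Vim at 13.8), as against 1 of 7 leukocyte markers (Cd14 at 5.35), 0 of 5 epithelial and 0 of 4 endothelial ones. Beta-actin has a probe set at each end of its mRNA, and on 5 of the 15 arrays at 1 h the 3′ signal exceeded the 5′ signal by 2.22 to 3.43, against 0.78 to 1.37 on the other 19 arrays. These 5 were replicate 2 in each of the labelled groups and replicates 2 and 3 of the mock group without 4sU. They are called the arrays of low 5′ actin signal here, and results are given with and without them where that matters. In bulk RNA such as this, fewer cells of a type and less RNA per cell cannot be told apart.

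The subunit genes were read far above background on nearly every array. In the alpha ring, the mean over 24 arrays lay between 10.42 (Psma4) and 12.36 (Psma3). In the beta ring it lay between 7.88 (Psmb2, a subunit with no active site) and 12.19 (Psmb4, likewise), in the ATPase ring between 9.77 (Psmc5) and 12.03 (Psmc2), and among the Psmd genes between 6.78 (Psmd9) and 11.45 (Psmd6). Probe sets differ in how well they bind, so these levels set no order among genes. Psmd9, Psmd5 and Psmd10 encode chaperones that help to assemble the base of the cap rather than parts of the finished particle. The representing probe sets of Psma6, Psmb4 and Psmc2 carry the maker's suffix for letters that can match several genes, and that of Psmd11 the suffix for probes shared by several transcripts, so these 4 are less certain.

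The upstream sequences were compared with those of other genes, because genes of one complex may share motifs. RefSeq promoter windows (build GRCm38.p6, 250 bases before to 50 after the start) were matched by symbol for 28 of the 34 members and for all 3 inducible subunits, and 5 motifs were searched on both strands, none of whose letters contain another's. The letters CCGGAAG, the core bound by ETS-family factors, were in the windows of 10 of 28 members (35.7%), against 9.93% of all 27025 genes and 22.4% of the 7724 genes with a probe set that passed the filter. In the 50 bases before the start they were found in 6 of 28 members (21.4%), as against 8.36% of the genes that passed and 3.54% of all genes. The median share of G and C in the windows was 55.8% for members, 61.3% for genes that passed and 52.7% for all. Those 6 members are shown with 30 bases each, 5′ to 3′ on the gene's strand, with the match, or its reverse complement, in capitals. They encode ATPases (Psmc1, Psmc2), a scaffold subunit that docks shuttle factors (Psmd2) and lid subunits (Psmd6, Psmd11, Psmd12).
Psmc1, chr12:100110172-100110201, plus strand: caCTTCCGGcggtggcgatttggaggactg
Psmc2, chr5:21786717-21786746, plus strand: gagctaCTTCCGGtggggaagagaaaggga
Psmd2, chr16:20651622-20651651, plus strand: ggcgCTTCCGGtctggaggacaacgcgcgt
Psmd6, chr14:14120966-14120995, minus strand: cgcgaCCGGAAGtcagactggcggctctgg
Psmd11, chr11:80428585-80428614, plus strand: taggaacgcgagggcgggtCTTCCGGgtgt
Psmd12, chr11:107479498-107479527, plus strand: gatgagcgggcgaCTTCCGGtgcgagtgac

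The antioxidant response element TGACNNNGC, a motif of the factors Nfe2l1 and Nfe2l2 that are known to drive proteasome genes, was in 17.9% of member windows, 14% of all windows by gene and 17% of genes that passed. The share of members was thus close to that of genes that passed. The 5 members with it were Psmb6 (position -9 from the start), Psmd9 (-31), Psmb5 (-47), Psmc6 (-227) and Psmd12 (-247). Whether other genes hold it as near the start was not tested, so these positions have no background. Psmb5 and Psmb6, the active-site genes with a window, are shown with the motif in capitals.
Psmb5, chr14:54618018-54618047, minus strand: agttgTGACGTCGCggcgttgccagtcgga
Psmb6, chr11:70525327-70525356, plus strand: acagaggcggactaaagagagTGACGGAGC

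The core of the interferon-stimulated response element (GAAA, any 2 bases, GAAA) was in 10.7% of member windows (Psmb3, Psmd4 and Psmd9), against 3.99% of all genes. The IFN-gamma activated site TTCNNNGAA was in 3.57% of member windows (Psmd2), against 9.55%, and CCAAT was in 39.3%, against 41.1%. Of the 3 inducible subunits, Psmb8 held TTCNNNGAA, Psmb9 held CCAAT, and the other 3 motifs were found in none of them. A match describes letters in this window only. With IFN-alpha at 3 h, Psmb3 differed from mock by -0.04 (SE 0.25), Psmd4 by -0.09 (SE 0.22) and Psmd9 by -0.02 (SE 0.73), and Psmd2 differed by -0.06 (SE 0.41) with IFN-gamma. None of these 4 differences passed the test described next.

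The main comparison asks whether interferon changed the mRNA of the standing proteasome within 1 or 3 h. It was tested with limma on the log2 values of all 19305 probe sets, and a difference was called where its Benjamini-Hochberg adjusted p was under 0.05. None of the 34 members was called. With IFN-alpha 0 of 34 were called at 1 h, where 0.259% of all probe sets were, and 0 of 34 at 3 h, where 1.55% were. With IFN-gamma 0 of 34 were called at 1 h (0.492% of all) and 0 of 34 at 3 h (1.99% of all). At an unadjusted p under 0.05, the counts with IFN-alpha were 0 at 1 h (1.6% of all probe sets) and 0 at 3 h (3.14%), and with IFN-gamma 0 at 1 h (3.0%) and 1, Psmd5, at 3 h (4.77%). With background shares this low, a count of 0 among 34 is near what the background gives, and the intervals below say more.

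The median difference over the 34 members was 0.02 with IFN-alpha and -0.03 with IFN-gamma at 1 h, where the medians of all probe sets were -0.01 and -0.04. At 3 h it was -0.06 with IFN-alpha and -0.01 with IFN-gamma, against -0.06 and -0.05 over all. The 95% interval of the difference lay wholly within 1 log2 unit either way (2-fold) for 32 and 32 of the 34 members at 1 h and for 30 and 31 at 3 h, IFN-alpha first. It lay within 0.5 log2 (1.41-fold) for 16 and 16 at 1 h and for 10 and 9 at 3 h. A single spread per probe set over all 7 groups sets the width of these intervals, and it takes in the wide 1 h arrays. With only the arrays of the groups compared, 34 of 34 members at 3 h had intervals within 1 log2 unit and 33 of 34 within 0.5 for each interferon, and again 0 were called, where 2.62% (IFN-alpha) and 4.93% (IFN-gamma) of all probe sets were. At an unadjusted p under 0.05 the counts in that fit were 2 and 1 of 34, where 12.9% and 14.8% of all probe sets passed. Without the arrays of low 5′ actin signal, 0 members were called at 1 h and 30 (IFN-alpha) and 31 (IFN-gamma) had intervals within 0.5.

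**Figure D1:**
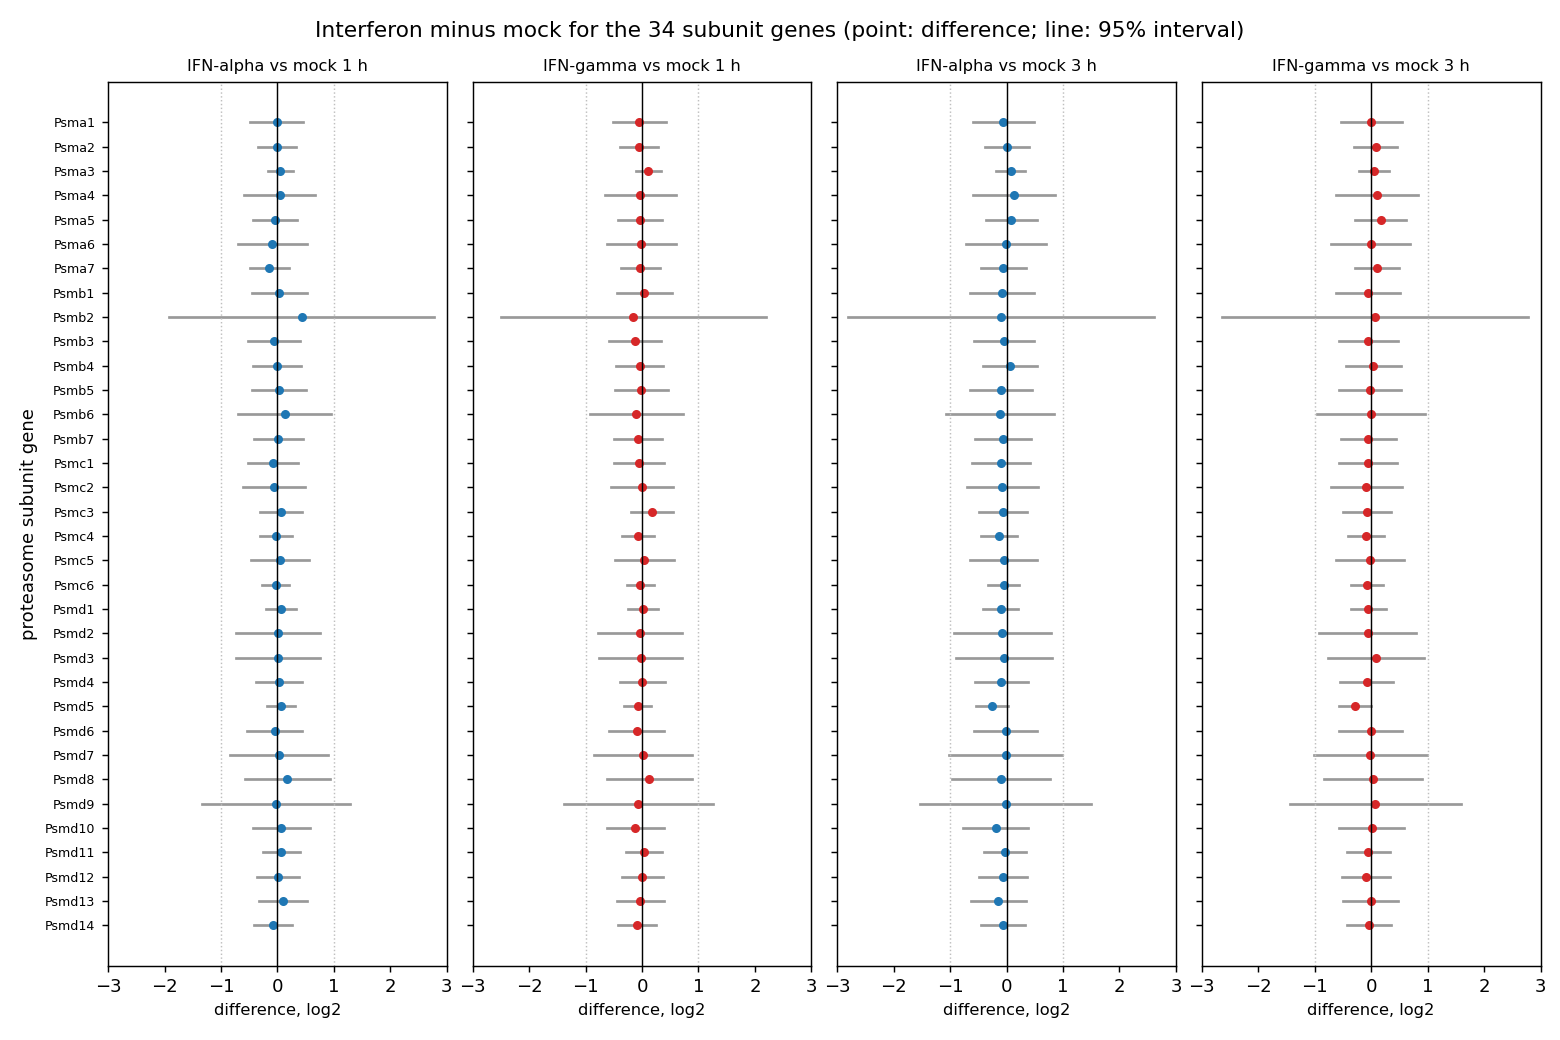
Difference between interferon and mock (x axis, log2) for each of the 34 subunit genes (y axis), with 95% intervals, in the 4 comparisons with mock; dotted lines mark 1 log2 unit either way. The points lie between -0.28 and 0.43, and the widest intervals are those of Psmb2 and Psmd9.

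Among the alpha subunits, differences lay between -0.14 and 0.05 with IFN-alpha at 1 h and between -0.06 and 0.13 at 3 h. With IFN-gamma they lay between -0.05 and 0.11 at 1 h and between -0.01 and 0.17 at 3 h. Psma5 had the highest of the 34 values with IFN-gamma at 3 h. It read 11.43, 11.54 and 11.59 on the 3 mock arrays, 11.66, 11.57 and 11.57 with IFN-alpha, and 11.62, 11.66 and 11.80 with IFN-gamma. The IFN-gamma arrays all lay above the mock arrays, by 0.17 on average (SE 0.22, adjusted p = 1 in limma). Psma4 read 10.76, 10.69 and 10.70 in mock cells, 10.87, 10.85 and 10.83 with IFN-alpha (a difference of 0.13, SE 0.35), and 10.78, 10.90 and 10.78 with IFN-gamma. Both interferon groups lay wholly above mock, by amounts smaller than the spread this probe set had at 1 h. Psma7, the other alpha subunit whose 3 h groups did not overlap, differed by -0.06 with IFN-alpha and by 0.10 with IFN-gamma (SE 0.19 for both).

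None of the active-site subunits was called, and their groups overlapped. Psmb5, the chymotrypsin-like subunit, read 10.54, 10.50 and 10.59 in mock cells at 3 h, 10.41, 10.40 and 10.52 with IFN-alpha, and 10.47, 10.58 and 10.53 with IFN-gamma. Psmb6, the caspase-like one, read 10.95, 10.85 and 11.00 in mock cells, 10.76, 10.77 and 10.94 with IFN-alpha, and 10.78, 10.92 and 11.08 with IFN-gamma. Psmb7, the trypsin-like one, read 11.09, 11.00 and 11.13 in mock cells, 11.03, 11.03 and 10.96 with IFN-alpha, and 11.06, 10.99 and 11.03 with IFN-gamma. The differences were -0.10, -0.11 and -0.07 with IFN-alpha and -0.02, -0.01 and -0.05 with IFN-gamma, in that order of genes. With IFN-alpha the 95% intervals were -0.65 to 0.45 for Psmb5, -1.07 to 0.84 for Psmb6 and -0.56 to 0.43 for Psmb7.

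At 1 h the same 3 genes read lowest on replicate 2 of each labelled group, and in the unlabelled mock group on replicate 3, also an array of low 5′ actin signal. Psmb6 read 10.82, 9.22, 10.53 and 10.64 in mock cells, 10.71, 9.60, 10.85 and 10.54 with IFN-alpha, and 10.67, 9.01, 10.63 and 10.48 with IFN-gamma. Psmb5 read 10.44, 9.55, 9.62 and 10.02 in mock cells, 10.26, 9.40, 10.08 and 10.01 with IFN-alpha, and 10.27, 9.42, 9.80 and 10.12 with IFN-gamma. Psmb7 read 10.90, 10.14, 10.62 and 10.61 in mock cells, 10.90, 10.15, 10.86 and 10.44 with IFN-alpha, and 10.82, 9.99, 10.71 and 10.49 with IFN-gamma. The low reading on replicate 2 was shared by mock and interferon arrays, and the groups overlapped for all 3 genes. The other beta subunits differed from mock by -0.15 to 0.43 at 1 h, both ends being Psmb2.

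The inducible partners were measured on the same arrays. Psmb9 (inducible beta1) read 3.64, 3.47 and 4.09 in mock cells at 3 h, 7.38, 7.19 and 7.68 with IFN-alpha, and 8.77, 8.82 and 9.12 with IFN-gamma. It rose by 3.68 with IFN-alpha (SE 0.35, adjusted p = 1.83e-07 in limma) and by 5.17 with IFN-gamma (SE 0.35, adjusted p = 1.3e-09), and differed between the interferons by -1.49 (adjusted p = 0.0256). Its mock mean lay below log2 4, so the folds are bounds, at least 10.4-fold and at least 29.4-fold higher with mock arrays below 4 raised to 4. The difference between the interferons lost its call without any 1 of IFN-alpha replicate 1 or 2 or IFN-gamma replicate 1, 2 or 3 (adjusted p from 0.0695 to 0.15), and without a filter (adjusted p = 0.0627). It kept its call with only the arrays compared (adjusted p = 0.00203 in limma) and with values below 4 set to 4 (adjusted p = 0.000621). At 1 h Psmb9 differed by 1.02 with IFN-gamma (adjusted p = 0.343), a difference called only without the arrays of low 5′ actin signal (1.30, adjusted p = 0.0437) or without replicate 2 of the IFN-gamma group (1.34, adjusted p = 0.02). Every mock array at 1 h read below log2 4 (3.41, 3.24, 3.40 and 3.39), as did replicate 2 with IFN-gamma (3.415). With values below 4 set to 4 the 1 h difference was 0.52 and not called.

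Psmb10 (inducible beta2) read 6.43, 6.30 and 6.20 in mock cells at 3 h, 8.69, 8.74 and 8.55 with IFN-alpha, and 9.30, 9.20 and 8.91 with IFN-gamma. Both interferon groups lay far above mock. The rise with IFN-gamma was called (2.83, SE 0.66, adjusted p = 0.0217 in limma), and the difference with IFN-alpha was not (2.35, SE 0.66, adjusted p = 0.119). With only the arrays compared, both were called (adjusted p = 1.71e-05 and 1.44e-05 in limma). Without the arrays of low 5′ actin signal the IFN-alpha difference was called too (adjusted p = 2.87e-08 in limma). It was also called with values below 4 set to 4 (adjusted p = 0.0383) and with quantile normalization (adjusted p = 0.0485). It was not called with a replicate block over all groups (adjusted p = 0.2) or without a filter (adjusted p = 0.309). Nor was it without any 1 of the 6 arrays compared (adjusted p from 0.3 to 0.385). In the fit over all groups the IFN-gamma call was lost without any 1 of the 6 arrays compared (adjusted p from 0.0601 to 0.1) and without a filter (adjusted p = 0.0667). Psmb8 (inducible beta5) stayed below log2 4 on all 24 arrays in both its probe sets, so the third pair has no measured partner.

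The value of an inducible subunit minus that of its constitutive counterpart was taken on each array, so that what shifts both probe sets alike cancels. For Psmb9 and Psmb6 this difference changed against mock at 3 h by 3.80 with IFN-alpha and by 5.18 with IFN-gamma, and for Psmb10 and Psmb7 by 2.42 and 2.87, with 3 of 3 treated arrays above all mock arrays each time. At 1 h it changed by 0.53 and 1.12 for the first pair and by 0.02 and -0.10 for the other. In exact two-sided permutation tests over arrays, all 4 comparisons at 3 h had p = 0.1, the smallest that 3 against 3 arrays allow, and an adjusted p of 0.16 over the 8 tests made. At 1 h the smallest exact p was 0.0571 (Psmb9 over Psmb6 with IFN-gamma, 3 of 4 treated arrays above all mock arrays, adjusted p = 0.16). For this pair the shift did not cancel on mock replicate 2 at 1 h, an array of low 5′ actin signal. Psmb6 read 9.22 there and Psmb9 3.24, below log2 4, so the subtracted value was -5.98. On the other mock arrays it was -7.41, -7.13 and -7.25, so the 1 h changes of this pair are uncertain. For Psmb10 and Psmb7 the shift did not cancel either. Replicate 2 gave -5.93 in mock cells, -6.66 with IFN-alpha and -6.47 with IFN-gamma, the lowest value of each labelled group. Psmb10 read below log2 4 on those 2 interferon arrays (3.49 and 3.52), so the 1 h changes of the second pair are uncertain too. With values below log2 4 raised to 4, the change of the first pair at 3 h was 3.50 and 4.88.

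**Figure D2:**
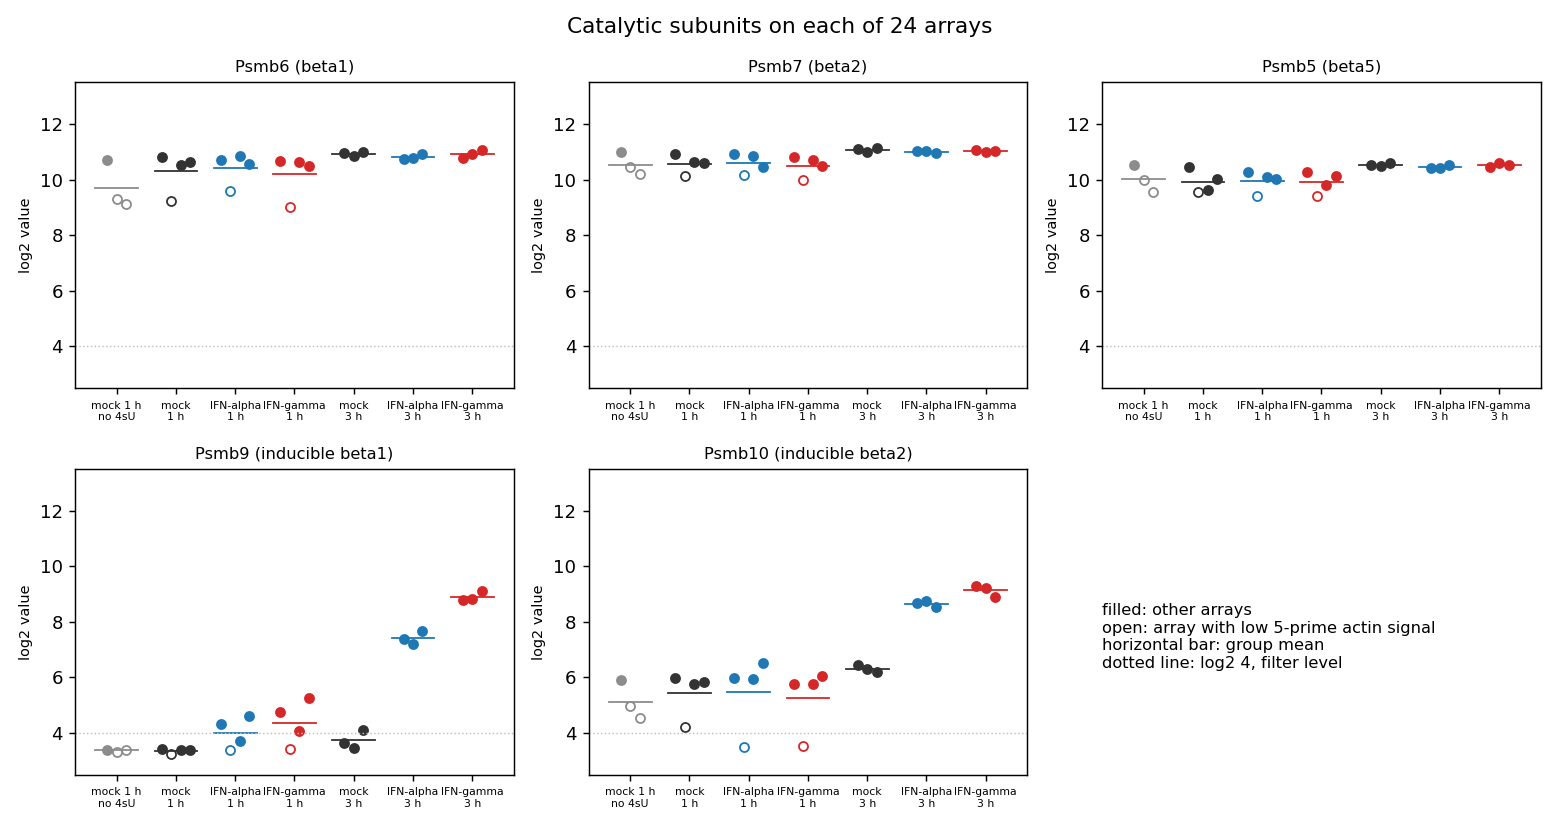
Log2 value (y axis) of the constitutive active-site subunits Psmb6, Psmb7 and Psmb5 and of the inducible Psmb9 and Psmb10 on each of the 24 arrays, by group (x axis); bars are group means and open circles the arrays of low 5′ actin signal. Psmb9 and Psmb10 sit higher on all interferon arrays at 3 h than on the mock arrays, and the constitutive subunits overlap mock.

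The ATPases of the base, Psmc1 to Psmc6, differed from mock by -0.08 to 0.06 with IFN-alpha and by -0.07 to 0.18 with IFN-gamma at 1 h. At 3 h all 6 were below 0 with each interferon, between -0.13 and -0.05 with IFN-alpha and between -0.09 and -0.02 with IFN-gamma, and none was called. Over all probe sets 30.7% (IFN-alpha) and 36.8% (IFN-gamma) of differences were above 0 at 3 h. Psmc3, with the highest difference at 1 h with IFN-gamma, read 10.52, 9.80, 10.37 and 10.37 on the mock arrays and 10.57, 10.02, 10.67 and 10.51 with IFN-gamma. Its difference was 0.18 (SE 0.18), and the groups overlapped. Within the 4 pairs of same-numbered arrays it was higher with IFN-gamma each time, by 0.05 to 0.30. Fitted with a replicate block the difference was 0.18 (SE 0.14, adjusted p = 1 in limma). That block covered only the groups compared, so this SE also holds the spread between replicates of the other groups. It does not measure the spread between the pairs. At 3 h it read 10.78, 10.77 and 10.79 in mock cells, 10.69, 10.72 and 10.74 with IFN-alpha and 10.72, 10.70 and 10.71 with IFN-gamma. The interferon arrays all lay below mock, by 0.06 and 0.07, with a range over all 9 arrays of only 0.10.

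Psmd5, the chaperone of cap assembly also called S5b, had the lowest differences of the 34 at 3 h. It read 9.38, 9.22 and 9.29 in mock cells, 9.10, 9.07 and 8.95 with IFN-alpha, and 8.92, 9.12 and 9.01 with IFN-gamma. All 6 interferon arrays lay below all 3 mock arrays. The difference was -0.26 with IFN-alpha (SE 0.14, adjusted p = 1 in limma) and -0.28 with IFN-gamma (SE 0.14, unadjusted p = 0.0499, adjusted p = 1 in limma), and both comparisons share the mock arrays. With only the arrays compared the adjusted p was 0.24 and 0.182. With array weights, which give noisier arrays less say, both differences were called at -0.20 (adjusted p = 0.0449) and -0.26 (adjusted p = 0.00811), in fits where 9.39% and 11.5% of all probe sets were called. Psmd5 had 1 probe set that passed the filter, so the difference has no second reading.

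The Psmd genes that handle the ubiquitin chain lay close to mock at 3 h. Psmd4, a ubiquitin receptor, differed by -0.09 and -0.08 (SE 0.22), and Psmd2, the scaffold that docks shuttle factors, by -0.08 and -0.06 (SE 0.41). Psmd14, the deubiquitinase of the lid, read 10.01, 10.05 and 10.04 in mock cells, 9.92, 10.01 and 9.98 with IFN-alpha and 9.96, 10.03 and 9.99 with IFN-gamma. Its 9 arrays spanned 0.13. Psmd10, the chaperone also called gankyrin, read 7.95, 7.90 and 8.0 in mock cells, 7.83, 7.76 and 7.69 with IFN-alpha and 8.01, 8.01 and 7.86 with IFN-gamma. The IFN-alpha arrays lay below the mock ones by 0.19 on average (-0.19, SE 0.28, not called), and the IFN-gamma arrays overlapped them. Over the 14 Psmd genes, all differences were below 0 with IFN-alpha at 3 h (-0.26 to -0.01), and 10 of 14 were with IFN-gamma. Psmd12, the second lowest with IFN-gamma at 3 h (-0.09, SE 0.20), overlapped mock.

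Counts of members whose arrays did not overlap between groups lay near the background. With IFN-alpha it was 0 of 34 at 1 h (0.746% of all probe sets) and 8 of 34 (23.5%) at 3 h (19.6% of all), 7 of them lower (Psma7, Psmc1, Psmc2, Psmc3, Psmd5, Psmd10, Psmd14) and 1 higher (Psma4). With IFN-gamma it was 0 of 34 at 1 h (1.31% of all) and 8 of 34 (23.5%) at 3 h (21.5% of all), 4 lower (Psmc2, Psmc3, Psmd5, Psmd11) and 4 higher (Psma4, Psma5, Psma7, Psmd9). The sizes were small, from -0.28 to 0.17. Within pairs of same-numbered arrays at 1 h, differences of 1 sign in all 4 pairs were found with IFN-alpha for 0 of 34 members (12.4% of all probe sets) and with IFN-gamma for 3 of 34 (18.5% of all), Psma3 and Psmc3 higher and Psmb2 lower. At 3 h, 1 sign in all 3 pairs was found for 19 of 34 with IFN-alpha (45.6% of all), 17 of them lower, and for 15 of 34 with IFN-gamma (41.3% of all), 8 of them lower.

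The 2 interferons were also set against each other. No member was called at 1 h (0 of 34, where 0.363% of all probe sets were) or at 3 h (0 of 34, where 1.68% were). The median difference, IFN-alpha minus IFN-gamma, was 0.04 at 1 h and -0.02 at 3 h. Psmb2 and Psmb6 had the highest values at 1 h (0.58, SE 1.12, and 0.23, SE 0.40), and Psmd10 and Psma7 the lowest at 3 h (-0.20, SE 0.28, and -0.16, SE 0.19). The change of each response from 1 h to 3 h, an interaction of time and treatment, gave 0 of 34 for IFN-alpha (0.953% of all) and 0 of 34 for IFN-gamma (0.829% of all). In each of these 4 tests 0 members had an unadjusted p under 0.05, where 2.86% and 4.32% of all probe sets did between the interferons at 1 h and 3 h, and 2.35% (IFN-alpha) and 3.11% (IFN-gamma) in the interactions. The largest such changes by size were those of Psmb2 for IFN-alpha (-0.52, SE 1.72) and Psmc3 for IFN-gamma (-0.25, SE 0.27), neither beyond its error. For Psmb9 the same interaction was called with both interferons.

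The genes around the proteasome were read from lists. Of the 6 assembly factors tested (Pomp, which matures the core, and Psmg1 to Psmg4 among them), 0 were called with either interferon at either time. The same held for 5 further cap subunits and bound enzymes, 5 shuttle and ubiquitin-supply genes and 6 genes of transcriptional control such as Nfe2l1 (0.09 with IFN-gamma at 3 h, SE 0.39). Of 4 activators and inhibitors 0 were called as well, but Psme1, a subunit of the activator cap that interferon is known to raise, read 9.49, 9.51 and 9.33 in mock cells at 3 h. With IFN-alpha it read 10.33, 10.26 and 10.18, and with IFN-gamma 10.41, 10.48 and 10.48. All 6 lay above mock, by 0.81 and 1.01 (SE 0.41, adjusted p = 1 and 0.631 in limma), and both differences were called with only the arrays compared (adjusted p = 0.00251 and 0.00045). In that narrower fit no member of the 34 was called. The interferon controls Irf1, Tap1 and Stat2 rose in all 6 tests at 3 h, and Irf1 and Tap1 also at 1 h.

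The subunit genes varied little between arrays at 3 h and widely at 1 h. The pooled standard deviation within groups had a median of 0.08 over members at 3 h (0.14 over all probe sets, with 30 of 34 members below that), and of 0.38 at 1 h (0.40 over all, 19 of 34 below). Each member stood by its highest probe set, and no background of like signal level was taken. These shares therefore do not set the members apart. Over the 9 arrays at 3 h the range of a member had a median of 0.23, and it was under 0.5 for 33 of 34. The exception was Psmb2, which read 9.15, 8.95 and 9.88 in mock cells, 8.89, 8.98 and 9.82 with IFN-alpha, and 9.04, 9.07 and 10.07 with IFN-gamma, so that replicate 3 was highest in each group. Over the 15 arrays at 1 h the median range was 1.05 and the highest 6.41, again that of Psmb2.

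**Figure D3:**
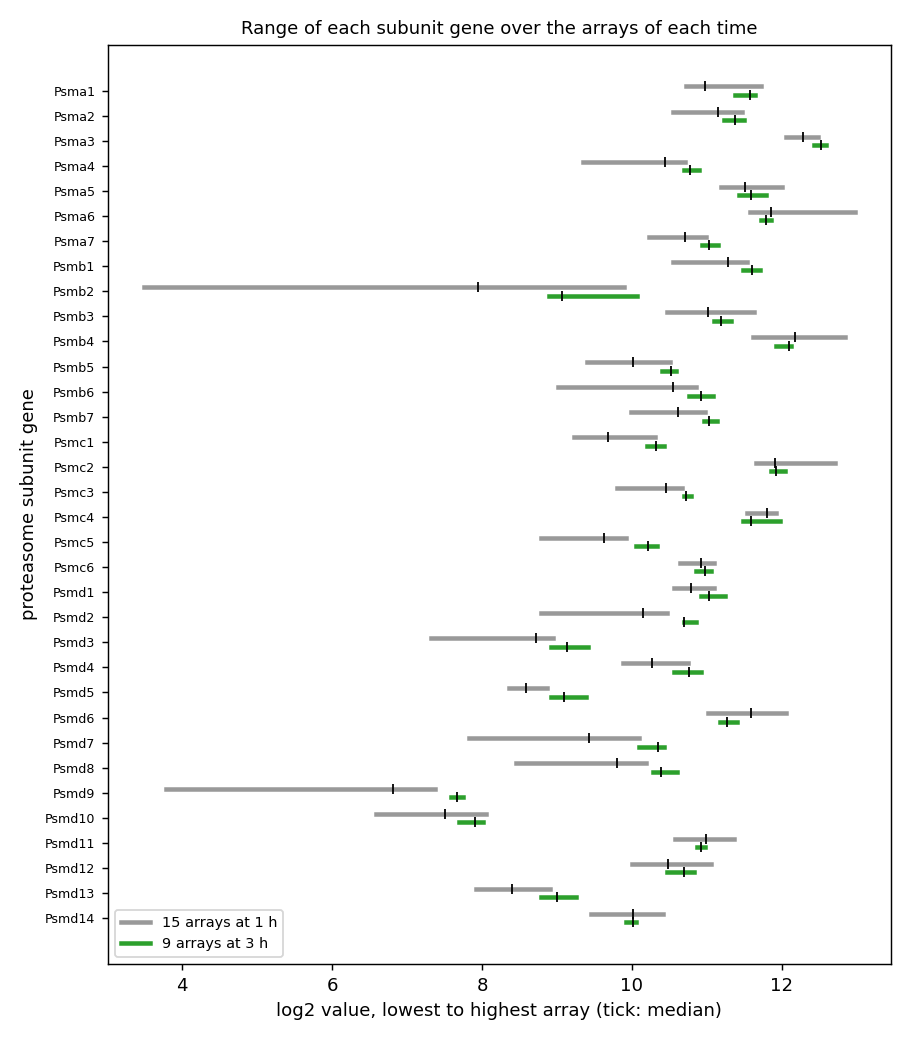
Lowest to highest log2 value (x axis) of each subunit gene (y axis) over the 15 arrays at 1 h (grey) and the 9 arrays at 3 h (green), with the median as a tick. Ranges at 3 h are under 0.5 for 33 of 34 genes, and at 1 h they reach 6.41 for Psmb2.

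At 1 h the members read differently on replicate 2 of the 3 labelled groups, the arrays of low 5′ actin signal. Set against the other 3 arrays of its group, 19 of 34 members were lower on all 3 such arrays, 11 were higher on all 3 and 4 were mixed. The median over members was -0.45, as against -0.03 over all probe sets, and 8 of 34 members (23.5%) lay below -1, as against 15.3% of all. Psmb2 read 8.10, 4.40, 8.05 and 8.92 in mock cells, 7.18, 5.14, 9.89 and 8.95 with IFN-alpha, and 7.95, 4.04, 7.94 and 8.91 with IFN-gamma. Replicate 2 was lowest in every group, by a median of 3.96 (a difference of -3.96). Psmd9 followed at -2.12, Psmb6 at -1.44, Psmd2 at -1.41 and Psmd8 at -1.35. Psma6 was at 1.02 and Psmc2 at 0.84, both through probe sets that can match several genes.

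Different probe sets of a gene did not move together on those arrays. Of the 16 genes with several, 10 had probe sets of opposite sign on replicate 2. The probe sets of Psmb3 were at 0.80 and -1.73 and those of Psmb4 at 0.48 and -1.08. Those of Psmd9 were at -2.12 and 0.93, the latter from a probe set near background (mean 4.12). For Psmb3 and Psmb4, whose probe sets all averaged 9.67 or more, the reading at 1 h therefore depended on which probe set stood for the gene. The part of the low 5′ actin signal in this was not tested.

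**Figure D4:**
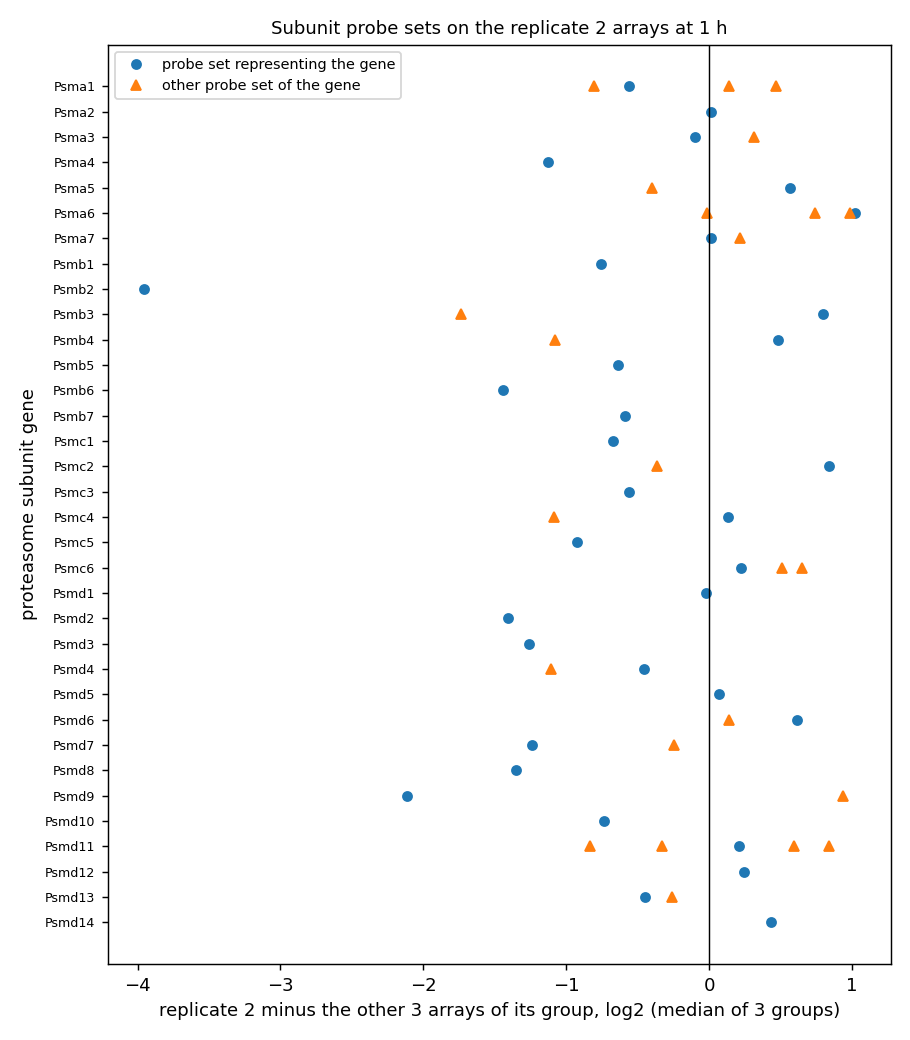
Log2 difference of replicate 2 from the other 3 arrays of its group at 1 h (x axis, median over the 3 labelled groups) for the 58 probe sets of the 34 subunit genes (y axis); circles are the representing probe sets and triangles the others. The representing values run from -3.96 (Psmb2) to 1.02 (Psma6), and 10 of 16 genes with several probe sets have them on both sides of 0. Some of these other probe sets read near background.

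Labelling itself was compared in mock cells at 1 h, with 4sU against without. No member was called (0 of 34, where 0.0311% of all probe sets were, and 0 at an unadjusted p under 0.05, where 7.0% were). The differences ran from -0.32 (Psmd12, SE 0.19) and -0.24 (Psmc2, SE 0.28) to 0.95 (Psmd9, SE 0.68) and 2.11 (Psmb2, SE 1.21). Psmb2 read 7.62, 4.65 and 3.49 without 4sU, with the arrays of low 5′ actin signal lowest. Without those arrays 1 unlabelled and 3 labelled arrays remained, the lone unlabelled array being assumed to vary like the other groups, and Psmb2 differed by 0.74 with a median of -0.05 over members.

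Most members read higher in mock cells at 3 h than at 1 h. Psmd5 was the only member called (1 of 34, where 11.3% of all probe sets were). It read 8.72, 8.48, 8.77 and 8.49 at 1 h and 9.38, 9.22 and 9.29 at 3 h, so it rose by 0.68 (1.61-fold, SE 0.13, adjusted p = 0.00142 in limma). All 3 h arrays lay above all 1 h arrays. With only the mock arrays in the fit the call was lost (adjusted p = 0.0545 in limma). A replicate block added to that fit also lost it (adjusted p = 0.164 in limma). Same-numbered arrays were not paired between the mock times (r from -0.232 to 0.127), so the fit with the block says little about the rise. Over the 34 members 28 differences were above 0, against 54.3% of all probe sets, and the median was 0.43 against 0.06. The lowest were Psmd6 (-0.32, SE 0.25) and Psma6 (-0.32, SE 0.32), and the highest Psmb2 (1.96, SE 1.21) and Psmd9 (1.17, SE 0.68). A second strong probe set of Psmd6 went the other way, at 11.36, 11.27, 10.98 and 11.04 at 1 h and 11.53, 11.49 and 11.25 at 3 h. So did one of Psma6, at 11.60, 11.35, 11.55 and 11.25 at 1 h and 11.74, 11.69 and 11.54 at 3 h. The direction of these 2 genes is therefore uncertain. Between these groups the hours since fresh medium changed along with the 4sU dose and its window, and these cannot be told apart.

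The same comparison without the arrays of low 5′ actin signal had a narrower spread. Then 9 of 34 members were called, all higher (26.5%, where 18.2% of all probe sets were called). They were the beta subunits Psmb1 and Psmb5, the ATPases Psmc3 and Psmc5, and Psmd2, Psmd5, Psmd7, Psmd8 and Psmd9. Their differences ran from 0.33 (Psmb1, SE 0.10, adjusted p = 0.0387 in limma) to 0.68 (Psmd9, SE 0.17, adjusted p = 0.0138). Over all members 30 of 34 were above 0, with a median of 0.34 against 0.06 over all probe sets. No alpha subunit was among those called, but with 18.2% of all probe sets called so short a list cannot set the alpha ring apart. For Psma3, Psma4 and Psma7 all mock arrays at 3 h lay above the 1 h ones kept (differences of 0.25, 0.16 and 0.34). For Psma1, Psma2, Psma5 and Psma6 they did not.

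Members whose 9 arrays at 3 h, treated or not, all lay above their 15 arrays at 1 h were Psmc3, Psmc5, Psmd2, Psmd5, Psmd7, Psmd8 and Psmd9. That is 7 of 34, or 20.6%, where 4.77% of all probe sets did so. In the opposite direction it was 0 of 34, where 4.53% did. Psmd2 ranged from 8.79 through a median of 10.15 to 10.47 at 1 h and from 10.69 through 10.70 to 10.85 at 3 h. Psmd7, a lid subunit, ranged from 7.82 through 9.43 to 10.09 at 1 h and from 10.10 through 10.35 to 10.43 at 3 h. Psmc5 ranged from 8.79 through 9.62 to 9.92 and from 10.05 through 10.22 to 10.34. The separation is set by the highest 1 h array, which for Psmd7 read 10.09 against 10.10 on the lowest 3 h array. The lower ends of the 1 h ranges play no part in it. For 6 of the 7 genes that lower end was an array of low 5′ actin signal, and for Psmd5 it was not (8.36, on replicate 4 with IFN-gamma).

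**Figure D5:**
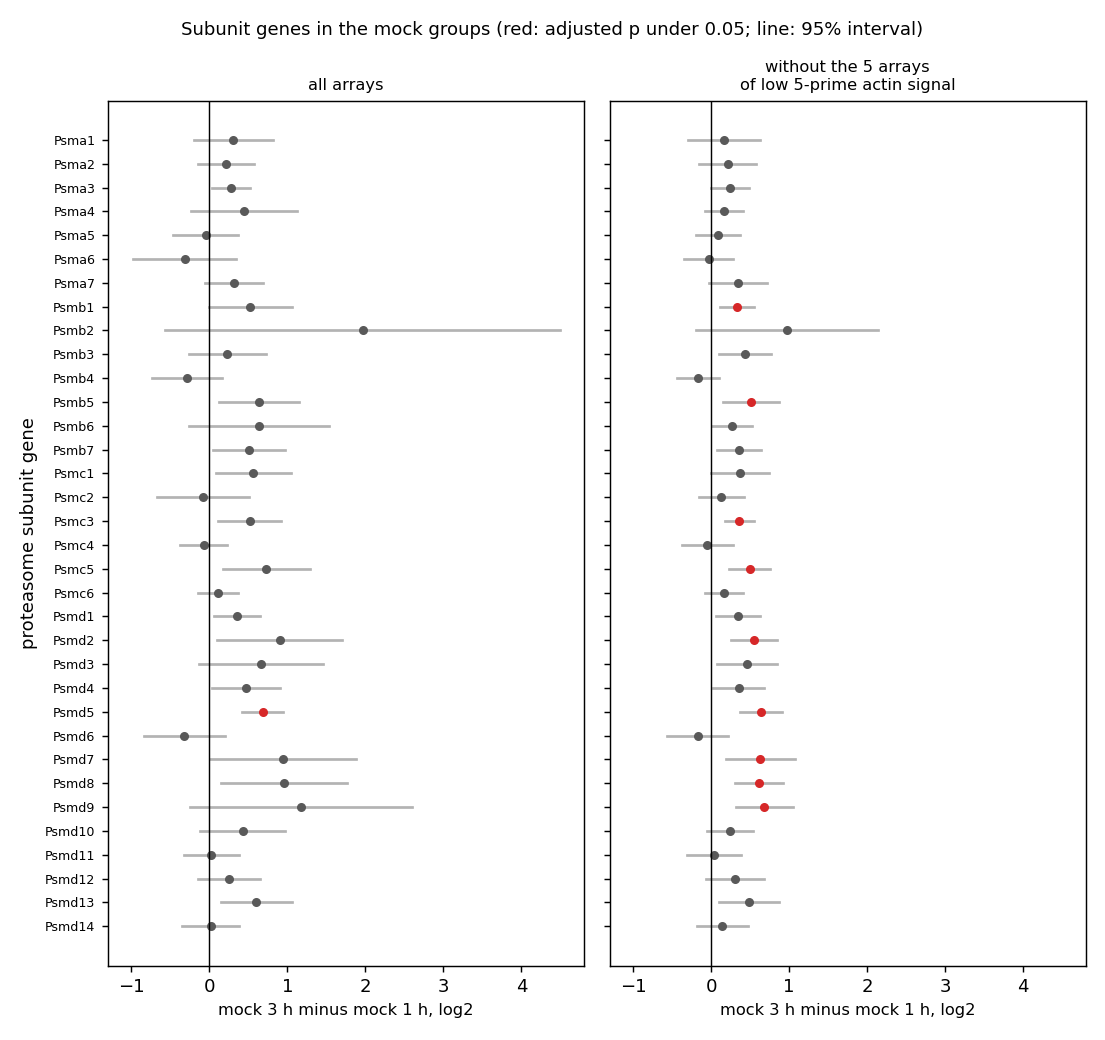
Difference between mock cells at 3 h and at 1 h (x axis, log2) for each subunit gene (y axis), with 95% intervals, over all arrays (left) and without the 5 arrays of low 5′ actin signal (right); red points are called. Of the 34 points, 28 lie above 0 on the left and 30 on the right, where 9 are called against 1 on the left.

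Probe sets of a gene also parted in this comparison. Of the 58 member probe sets 5 were called (8.62%, where 11.3% of all probe sets were), those of Psmd5 and the second ones of Psmc2, Psmc4, Psmd13 and Psma3. For Psmc2 and Psmc4 the representing probe sets differed by -0.08 and -0.08 and the second ones by 0.58 (adjusted p = 0.0321 in limma) and 1.05 (adjusted p = 0.046). For Psma3 the representing probe set differed by 0.27 and the second, with a mean of 3.67 at 3 h and 4.86 at 1 h, by -1.19 (adjusted p = 0.0105), a value near background. For Psmd13 both were higher, at 0.60 and 0.57. The sign differed between probe sets for 12 of the 16 genes with several, Psmc2, Psmc4, Psma3, Psmb4, Psmd6 and Psma6 among them. For all 12 the direction between the times depends on the probe set and is uncertain, though some of these probe sets read near background. Among the related genes 2 of 6 assembly factors were called between the mock times, Psmg1 (0.56, SE 0.18) and Psmg3 (0.89, SE 0.19), both higher. Of 6 genes of transcriptional control 1 was called, Mafk, a partner of Nfe2l1, which fell by 1.31 (SE 0.22). In the lists of inducible subunits, activators, further cap subunits and shuttle genes 0 were called. With 11.3% of all probe sets called, so few calls do not set these lists apart.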

How the data were processed

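Total RNA of NIH-3T3 cells was measured on 24 one-colour Affymetrix arrays. Per the submitters' processing notes, GCRMA (background correction, normalization and summary per probe set, version not given in the sources used here) was used, and the authors deposited its log2 values. Every column of the values was mapped to a sample (0 columns unused). Of 45101 probe sets, 64 controls were left out, and 34945 had a single gene symbol. Probe sets above log2 4 on at least 3 arrays were kept (19305).

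All 7 groups were fitted together with limma 3.58.1 (R 4.3.3, data.table package, version 1.17.8), as group means without a replicate term (17 residual degrees of freedom), in 10 two-sided comparisons. Differences are log2 differences of group means with their standard error (SE) and n of 3 or 4 arrays per group. p-values were Benjamini-Hochberg adjusted over all probe sets kept. The test was checked on simulated data. Alternatives were the replicate block, only the groups compared, no filter, values below 4 set to 4, quantile normalization, array weights, the mean over probe sets, the unlabelled control at 1 h, leaving out the arrays of low 5′ actin signal (3′ minus 5′ above 2) and leaving out each array. The block within only the groups compared and the subtraction of constitutive from inducible subunits were added after seeing the data.

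Same-numbered arrays deviated together within a time (r from 0.465 to 0.914 at 1 h and from 0.128 to 0.646 at 3 h) between the labelled groups. For 4sU against none at 1 h r ran from 0.0809 to 0.802 and between the mock times from -0.232 to 0.127. With every pair above 0.1 taken as pairing, the numbers pair arrays among the labelled groups of a time only. The signs of within-pair differences were added after seeing the data.

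Genes named in full were those called, the active-site subunits, the highest and lowest means of each family, the 2 largest rises and falls of each comparison, and genes whose probe sets disagreed for a called difference. Other names were chosen after their values were seen. The members and lists were chosen with earlier results of these data known. Promoter sequences are RefSeq's (GRCm38.p6).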

Additional observations from a re-analysis of the deposited data

Results flagged for a closer look

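In groups of 4 arrays at 1 h, 10 of 102 member values tested stood farther from the other 3 arrays than Dixon's 95% limit allows, where chance gives 5.1, and 8 of the 10 lay on replicate 2, an array of low 5′ actin signal. In the IFN-alpha group replicate 2 was highest for Psma6 (12.71) and Psmb4 (12.84) and lowest for Psmc3 (9.91), Psmd3 (7.54) and Psmd9 (4.85). In the IFN-gamma group replicate 2 was lowest for Psmb6 (9.01), Psmd2 (8.79) and Psmd8 (8.56). The other 2 were lowest values on replicate 4, Psma2 with IFN-alpha (10.89) and Psma7 in mock cells (10.35). Psma7 and Psma2 are alpha-ring subunits, and their values there lay within the range of the other 1 h arrays.

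No member was called for a response that differed between the times. Among the genes related to them, the inducible subunit Psmb9 did, by a test of the interaction of time and treatment in limma, by 3.03 for IFN-alpha (adjusted p = 0.000346) and by 4.16 for IFN-gamma (adjusted p = 7.79e-06), both larger at 3 h.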

How the results depend on the processing

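Counts of members called stayed at 0 under every alternative run for both interferons at 1 h, for the interferons against each other, for the change of each response with time and for 4sU. With array weights 1 member was called for IFN-alpha and 1 for IFN-gamma at 3 h (Psmd5, lower, both times), and the estimate of those weights stopped before it converged. Between the mock times 1 member was called in the main setting, 0 with only the groups compared, 0 with the replicate block and only the groups compared, 8 with array weights and 9 without the arrays of low 5′ actin signal. Leaving out 1 array there gave 1 to 5, the 5 without replicate 1 of mock at 1 h. The replicate block in the fit over all groups, which covered only the arrays compared, changed no count of members called. Median member differences stayed within the spread, though leaving out 1 array moved them from -0.09 to 0.11 with IFN-alpha and from -0.12 to 0.11 with IFN-gamma at 1 h, across 0. Of 986 settings for single genes and subtracted pairs, 951 gave the same call, 15 lost one, 18 gained one, 2 moved and 0 reversed. The signal over background is ample for all members except Psmb2 and Psmd9 on the arrays of low 5′ actin signal, and the 1 h spread limits what could be seen there.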
